A study of Mus musculus with 10 samples.

Results

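A list of 35 macrophage and myeloid marker genes was followed through RNA-seq of primary adipocyte cultures in which the secretory kinase gene Fam20c was intact or deleted in adipocytes. The genes were chosen by symbol, each matched 1 row of the deposited table of 56748 genes, and all 35 had enough counts to be tested. Of these 35, 1 was lower and 0 were higher in KO cultures than in control cultures at an adjusted p limit of 0.05. The gene that fell was Cd163, the scavenger receptor that takes up haemoglobin bound to haptoglobin, and its level fell from 44.4 ± 5.58 to 30.3 ± 3.53 CPM (SD, n = 5). CPM are counts scaled to a library size common to all libraries.

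Control cultures (n = 5) came from Fam20c-flox mice and KO cultures (n = 5) from Fam20c-flox/Adipoq-Cre mice, so both genotypes carried the floxed allele. The stromal vascular fraction of inguinal fat was taken from male mice 6 to 8 weeks old, of a line crossed to C57BL/6J for 5 generations or more, and was differentiated for 6 to 8 days in medium that held dexamethasone, insulin, rosiglitazone and a phosphodiesterase inhibitor at different stages. The adiponectin promoter that drives Cre is active in adipocytes, and macrophages in these dishes are not its known target. The labels do not say whether the 5 libraries of a group came from separate mice, so P values measure the spread between these libraries, which may be technical. Libraries held 18949106 to 26237825 counts, libraries of a group differed by more than sampling noise, and control library 4 and KO library 1 lay far from the other 8 on principal component 1, with 23.5% of the variance. Fam20c itself had 8.86 to 11.9 CPM in control and 6.65 to 7.74 CPM in KO libraries, without overlap. Its fall was partial, to 0.711 times the control level.

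Adipose tissue holds many macrophages, and the stromal vascular fraction from which adipocytes are grown carries some of them into culture. Macrophages depend on the receptor CSF1R and on the transcription factor PU.1, which is encoded by Spi1. They take up dying cells, lipid and opsonised particles through scavenger, Fc and complement receptors, many of which signal through the adaptors encoded by Tyrobp and Fcer1g. In obese fat they are known to surround dying adipocytes and to be a source of inflammatory mediators.

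PU.1 binds purine-rich sites with the core GAGGAA, known as the PU box, and promoters of several members were examined for these letters. RefSeq promoter windows on GRCm38.p6, each 300 bases long and ending shortly after a transcription start, were at hand for 26 of the 35 genes. The motif GAGGAA occurred on either strand in 19 of the 33 windows of these 26 genes, against 28.3% of all 32851 windows. Counted by gene, 17 of the 26 had a window with it. Some genes have several windows, which are not separate observations. The longer form GAGGAAGT, which contains GAGGAA, was present in 3 of the 33 windows, for C1qc, Cd53 and Ctss, and in 1052 of all windows. The overlapping forms AGGAAGT and GGAAGTG were in 10 and 9 of the 33 windows, against 3072 and 3615 of all 32851 windows. The common core GGAA was in 33 of 33 windows and in 96.0% of all windows. The C/EBP palindrome TTGCGCAA was in 0 of the 33 windows and in 0.183% of all windows. These matches describe letters in a window and are not measured sites.

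The windows of 5 genes are shown because the results turn on them: Cd163 fell, Mrc1 is another scavenger receptor gene whose level was highest in the same library, Lyz2 had the highest level, and C1qb and C1qc are neighbours that followed each other closely. Capitals mark GAGGAA, or TTCCTC where the motif lies on the opposite strand, and sequences run 5′ to 3′ on the strand of the gene.
Cd163 (chr6:124304401-124304700, plus strand): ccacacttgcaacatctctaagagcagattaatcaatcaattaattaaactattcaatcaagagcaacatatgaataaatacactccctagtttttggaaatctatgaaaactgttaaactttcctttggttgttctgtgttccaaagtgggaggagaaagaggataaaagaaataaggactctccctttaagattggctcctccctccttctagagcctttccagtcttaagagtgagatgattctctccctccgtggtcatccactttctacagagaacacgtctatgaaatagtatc
Mrc1 (chr2:14229164-14229463, plus strand): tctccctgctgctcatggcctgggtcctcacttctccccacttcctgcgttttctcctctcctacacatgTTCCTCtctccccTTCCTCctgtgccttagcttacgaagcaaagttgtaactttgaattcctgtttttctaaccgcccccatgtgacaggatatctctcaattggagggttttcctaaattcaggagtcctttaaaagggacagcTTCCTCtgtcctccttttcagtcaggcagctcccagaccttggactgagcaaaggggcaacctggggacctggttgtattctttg
Lyz2 (chr10:117282223-117282522, minus strand): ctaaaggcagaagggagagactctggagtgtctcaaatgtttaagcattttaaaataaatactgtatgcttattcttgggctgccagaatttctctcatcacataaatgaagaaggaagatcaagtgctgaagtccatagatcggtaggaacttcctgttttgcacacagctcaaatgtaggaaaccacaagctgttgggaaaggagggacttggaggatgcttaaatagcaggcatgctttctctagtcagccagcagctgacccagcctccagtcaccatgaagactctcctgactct
C1qb (chr4:136886151-136886450, minus strand): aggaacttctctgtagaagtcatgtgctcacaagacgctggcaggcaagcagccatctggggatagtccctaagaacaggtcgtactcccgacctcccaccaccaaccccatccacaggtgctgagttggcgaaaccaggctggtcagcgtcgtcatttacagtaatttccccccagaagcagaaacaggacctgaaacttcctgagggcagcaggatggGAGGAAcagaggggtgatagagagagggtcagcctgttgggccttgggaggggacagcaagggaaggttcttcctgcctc
C1qc (chr4:136892865-136893164, minus strand): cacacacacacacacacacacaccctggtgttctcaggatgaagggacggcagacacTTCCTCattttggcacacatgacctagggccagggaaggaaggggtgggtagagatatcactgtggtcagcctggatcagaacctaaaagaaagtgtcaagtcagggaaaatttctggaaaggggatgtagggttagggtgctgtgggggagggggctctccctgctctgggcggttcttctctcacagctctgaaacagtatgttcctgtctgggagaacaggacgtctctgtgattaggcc
The window of Mrc1 held 3 matches, beginning 180, 167 and 35 bases before the start, those of C1qb and C1qc held 1 each, and those of Cd163 and Lyz2 held 0. A window without a match says only that these letters are not in it.

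The labels call the cultures primary adipocytes, and the 12 adipocyte markers examined, among them Adipoq and Plin1, summed to 32060 to 32961 CPM in control and 33786 to 35825 CPM in KO libraries. The 35 macrophage and myeloid genes together took 0.194% to 0.337% of all counts. Defining macrophage genes were present in every library, with at least 1164 counts for Adgre1, 1308 for Cd68 and 606 for Csf1r. Of 49 listed markers of neutrophils and monocytes, T and NK cells, B cells, mast cells and dendritic cells, 13 had 0 counts in all 10 libraries, among them S100a9, Cd3d, Cd3g, Ms4a1, Xcr1, Clec9a and Ccr7, and 27 others had at most 11 counts in a library. The remaining 9 were expressed enough to be tested: Plac8, Csf3r, Mpo, Thy1, Il7r, Lck, Ighm, Kit and Zbtb46. Plac8 averaged 64.4 CPM (control) and 67.4 CPM (KO), and Thy1, which fibroblasts also express, 17.9 and 18.2 CPM. Plac8 and Thy1 made up most of the sums of their lists. Of 8 dendritic cell markers 1 was testable, Zbtb46. The sums that follow are therefore not read as amounts of a cell type. The summed levels ran from 57.4 to 85.1 CPM in control and 62.8 to 73.9 CPM in KO libraries for neutrophil and monocyte markers, from 16.4 to 23.2 and 17.3 to 25.7 CPM for T and NK cell markers, and from 10.9 to 12.7 and 9.35 to 11.4 CPM for dendritic cell markers. Of 7 mast cell markers 1 was testable, Kit, which also marks other cells and was lower in KO (log2 fold change -1.09, edgeR adjusted p = 0.0126). Among macrophage genes outside the members, the chemokine receptors Cx3cr1 and Ccr2 had at most 5 and 1 counts in a library, and Itgax at most 4.

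The summed level of the 35 genes did not separate the groups. It was 2831, 2332, 3316, 2410 and 2312 CPM across control libraries 1 to 5 and 3175, 2062, 3067, 2799.6 and 1961 CPM across KO libraries 1 to 5. Control library 3 was the highest, KO libraries 1 and 3 came next, and KO libraries 2 and 5 were the lowest, so that the range of the KO libraries reached past the control range at its lower end only. The means were 2640.3 ± 433 and 2613 ± 567 CPM (SD, n = 5). Lyz2 made up 43.3% of this sum. In bulk cultures, fewer macrophages and less of these transcripts per macrophage cannot be told apart.

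**Figure D1:**
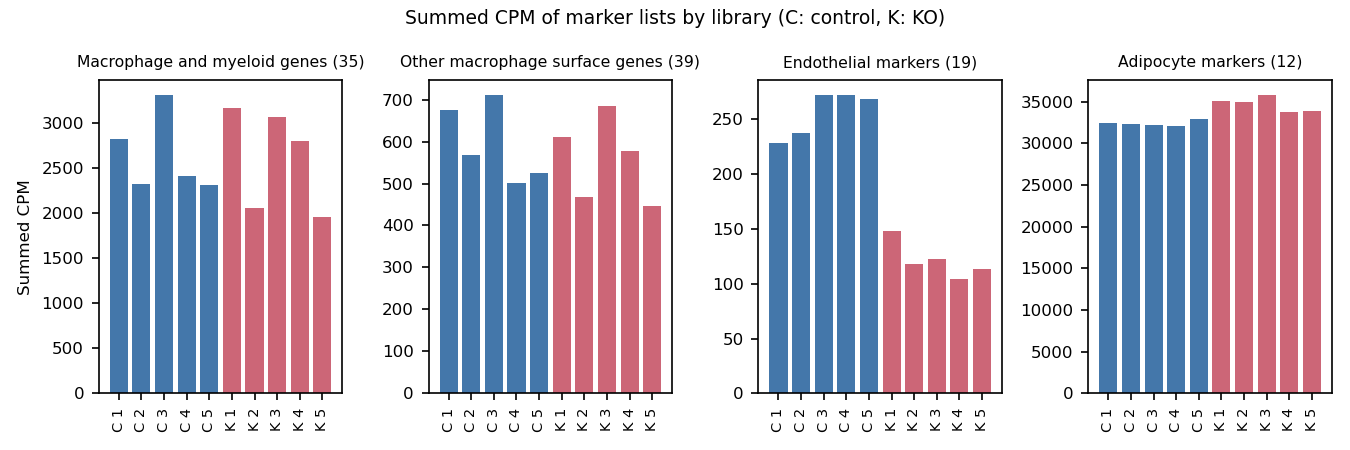
Summed CPM of 4 lists of genes (bars, axes from 0) in control libraries 1 to 5 (C, blue) and KO libraries 1 to 5 (K, red). The macrophage and myeloid genes ran from 2312 to 3316 CPM in control and from 1961 to 3175 CPM in KO libraries, while the endothelial markers of the KO libraries, at 105 to 148 CPM, lay below those of the control libraries, at 228 to 272 CPM.

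Of all 14270 genes tested, 1.86% were lower and 0.308% were higher in KO at the adjusted limit (edgeR, Benjamini-Hochberg), so 1 lower member of 35 is near that background. At an unadjusted p-value under 0.05, 2 members were lower, Cd163 and Fcgr2b, and 0 were higher, against 7.46% and 4.43% of all genes. KO libraries lay wholly below control libraries for 1 member and wholly above for 0, against 2.66% and 1.31% of all genes. The median log2 fold change (KO over control) was -0.09 over the members and -0.00085 over all genes. A negative value was given by 27 of the 35 members and by 50.3% of all genes. This count rests on a few libraries: it was 17 without control library 3, 18 without KO library 2 or KO library 5, and 35 without control library 4 and KO library 1, with medians of 0.02, -0.0074, -0.0013 and -0.17.

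The 95% interval of the log2 fold change lay between -1 and 1 for 35 of 35 members and within 0.5 of 0 for 25, so that changes of 2-fold or more were outside the interval of every member. It included 0 for 34. These intervals use fewer degrees of freedom than the edgeR test and are wider. Fcgr2b, with an unadjusted p-value under 0.05 from that test, is therefore among the 34. For the 34 members other than Cd163 the log2 fold change ran from -0.39 to 0.09, with adjusted p-values from 0.409 to 0.999 (edgeR, Benjamini-Hochberg). DESeq2's Wald test called 2.52% of all genes lower, limma voom with sample quality weights 2.43%, a fit with the replicate number as a block 1.35%, and the fit without control library 4 and KO library 1 2.46%; each of them called 1 member lower, Cd163, and 0 higher.

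**Figure D2:**
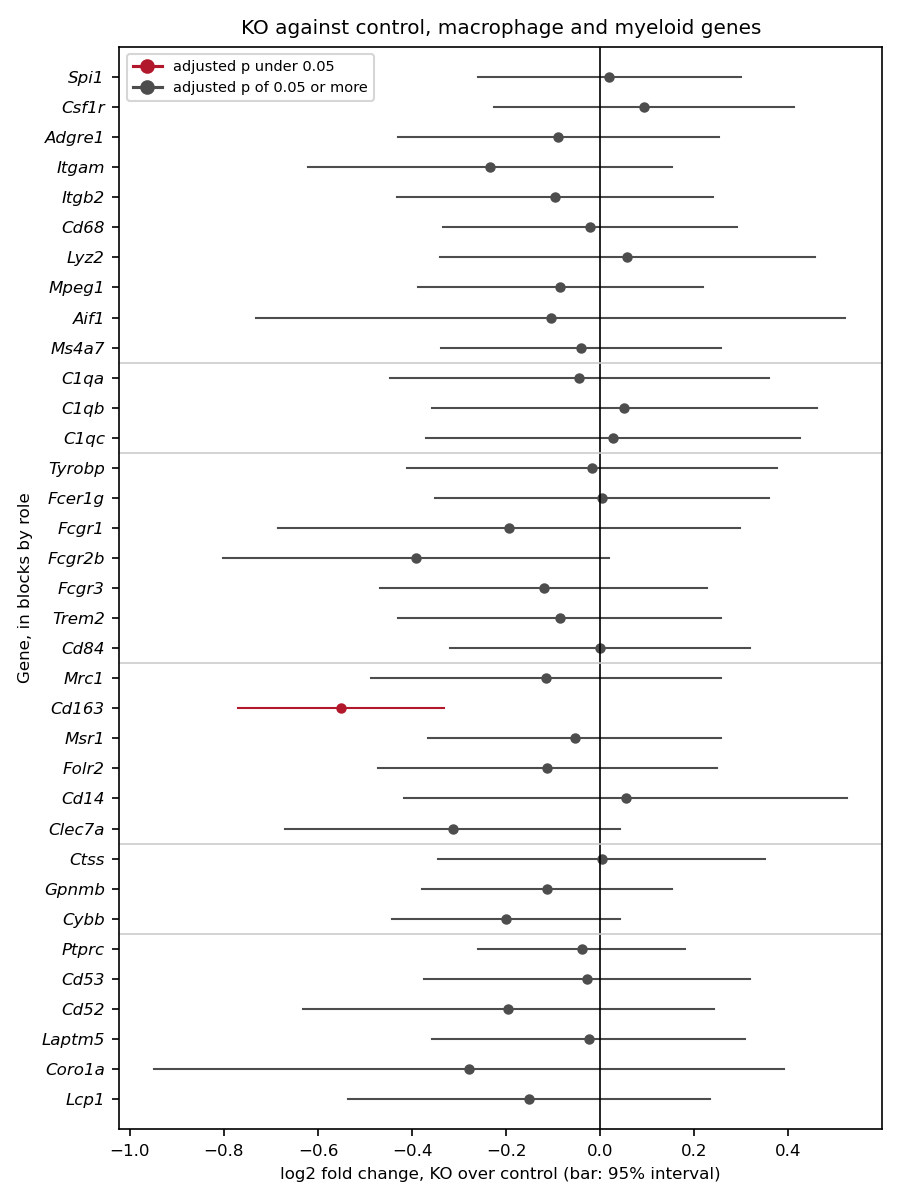
Log2 fold change of KO over control (x axis) for the 35 genes (y axis, in blocks by role), with points for estimates and bars for 95% intervals, red where the adjusted p-value was under 0.05. The interval of Cd163, from -0.77 to -0.33, leaves out 0, and the intervals of the other 34 genes include it.

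Among the genes of myeloid identity, 0 of 10 passed the limit in either direction, and 7 had negative and 3 positive log2 fold changes. Spi1 (chromosome 2, 91082390 to 91115756) had 9.39, 9.34, 12.5, 8.90 and 8.33 CPM across control libraries 1 to 5 and 10.1, 8.61, 12.002, 9.44 and 8.86 CPM across KO libraries 1 to 5. Library 3 was the highest in each group and the groups overlapped, with a log2 fold change of 0.02 (standard error, SE, 0.121, edgeR adjusted p = 0.980). Csf1r (chromosome 18, 61100598 to 61132149), the receptor for the macrophage growth factors CSF1 and IL-34, had 38.96, 33.6, 42.1, 31.7 and 31.9 CPM in control and 47.8, 28.2, 44.6, 38.6 and 30.8 CPM in KO libraries. Its highest and lowest libraries were both KO libraries, and the log2 fold change was 0.09 (SE 0.138, edgeR adjusted p = 0.885). The gene overlaps Hmgxb3 on the opposite strand, and the strand setting of the counting is not given in the sources used here. In all, 11 members overlap another annotated gene, 6 of them one on the opposite strand, and reads of such pairs may not be told apart.

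Adgre1 (chromosome 17, 57358691 to 57483527), which encodes the macrophage antigen F4/80, had 87.1, 69.5, 109, 84.6 and 76.6 CPM in control and 99.3, 64.5, 89.5, 88.7 and 59.2 CPM in KO libraries. Control library 3 was again the highest and KO library 5 the lowest, and the log2 fold change of -0.09 (SE 0.148) was within the spread between libraries. Cd68 (chromosome 11, 69664213 to 69666153), a glycoprotein of macrophage lysosomes and endosomes, had 82.5, 72.1, 97.9, 79.8 and 74.9 CPM in control and 107, 61.5, 89.4, 76.1 and 66.6 CPM in KO libraries. Here KO library 1 was the highest, and the log2 fold change was -0.02 (SE 0.135). The integrin genes Itgam and Itgb2, which encode the chains of complement receptor 3 (CD11b and CD18), had means of 7.97 ± 1.64 and 36.2 ± 5.78 CPM in control and 6.74 ± 1.47 and 33.8 ± 7.44 CPM in KO libraries (SD, n = 5). The log2 fold change of Itgam was -0.23 (SE 0.168, edgeR adjusted p = 0.673), and its libraries overlapped, at 6.11 to 10.4 CPM in control and 4.73 to 8.33 CPM in KO.

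Lyz2 (chromosome 10, 117277331 to 117282321), which encodes the bacteriolytic lysozyme of macrophages and granulocytes, had 1229.6, 964, 1474, 1022 and 890.1 CPM in control and 1398, 892, 1355, 1349.8 and 809 CPM in KO libraries. Per kilobase of exon its mean over all libraries was 865 CPM, and that of C1qb, the next in order, was 108. C1qa (91.6), Ctss (75.3) and Cd68 (64.3) followed on this scale, and Ptprc, at 0.402, was the lowest member. The length used is that of all annotated exons of a gene merged, 18313 bases for Ptprc, so the order depends on this measure. For Lyz2, each group held libraries near the top and near the bottom of the range. Its log2 fold change was 0.06 (SE 0.173, edgeR adjusted p = 0.956). With at least 15888 counts in a library, counting error was at most 0.793% of its value, while its spread between libraries of a group was 23.0% of the mean. Lyz2 has a close relative, Lyz1, and reads common to both could be lost or shared. The other members of this block were Mpeg1, which encodes the pore-forming perforin-2, Ms4a7, a tetraspan membrane protein gene, and Aif1, which encodes the actin-binding protein IBA1. They had log2 fold changes of -0.09, -0.04 and -0.11, and Aif1 rested on 14 to 42 counts per library.

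The genes of the complement component C1q, whose A, B and C chains are made by macrophages and assemble into the molecule that starts the classical pathway, lie close together on chromosome 4. C1qb (136880129 to 136886187) had 124, 109.9, 152, 84.7 and 107 CPM in control and 141, 88.4, 161, 118 and 90.04 CPM in KO libraries. Library 3 was the highest in each group, control library 4 was the lowest of all, and the groups overlapped. C1qa (136895917 to 136898803) and C1qc (136889804 to 136893065) had the same highest and lowest libraries, and their means were 96.8 ± 20.9 and 93.9 ± 20.4 CPM (control) against 93.8 ± 24.9 and 95.7 ± 23.9 CPM (KO; mean ± SD, n = 5). The log2 fold changes were -0.04 for C1qa, 0.05 for C1qb and 0.03 for C1qc, with adjusted p-values of 0.967, 0.962 and 0.980 (edgeR, Benjamini-Hochberg). Over the 10 libraries, the coefficient of variation was 22.9% for C1qb and 22.1% for C1qc, and that of their ratio in a library was 3.75%, with ratios from 1.15 to 1.30. The ratio of C1qa to C1qb was more variable, at 0.718 to 0.880 with a coefficient of variation of 6.05%, and that of C1qa to C1qc had 5.05%.

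In the block of Fc receptors and their signalling partners, 0 of 7 passed the limit and 6 of 7 log2 fold changes were negative. Tyrobp and Fcer1g, the adaptors that carry the activation motif (ITAM) for receptors such as TREM2 and the activating Fc receptors, had log2 fold changes of -0.02 and 0.0038. Tyrobp had 24.6 to 39.7 CPM in control and 21.6 to 36.9 CPM in KO libraries. Fcgr2b (chromosome 1, 170958617 to 170976547), the inhibitory Fc receptor gene, which liver sinusoidal endothelium also expresses, had 21.6, 17.3, 19.8, 13.6 and 14.0 CPM in control and 17.4, 10.8, 15.7, 12.9 and 8.86 CPM in KO libraries. KO libraries 2, 4 and 5 lay below each control library and KO libraries 1 and 3 lay inside the control range. The log2 fold change was -0.39 (SE 0.178, 95% interval -0.80 to 0.02) and did not pass the limit (adjusted p = 0.409, edgeR with Benjamini-Hochberg adjustment). Without control library 4 and KO library 1 it was -0.58, with an adjusted p of 0.0873 from the same test. With the replicate number as a block it was -0.41, with an adjusted p of 0.0912 (edgeR).

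The activating receptor genes Fcgr3 and Fcgr1 had means of 51.2 ± 9.03 and 4.08 ± 1.34 CPM (control) and 47.0 ± 10.7 and 3.55 ± 0.436 CPM (KO; mean ± SD, n = 5), with log2 fold changes of -0.12 and -0.19. Fcgr1 was lowest in control library 4, at 1.98 CPM. The genes of this family resemble each other in sequence, so some reads may be counted on a relative. Trem2, a lipid-sensing receptor gene of lipid-laden macrophages, had 19.97 to 27.5 CPM in control and 16.5 to 28.2 CPM in KO libraries, and Cd84, a homophilic receptor gene of the SLAM family, had 16.9 to 25.4 and 17.4 to 28.3 CPM. Their log2 fold changes were -0.09 and -0.00095.

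Scavenger and pattern recognition receptors were the block that held the called gene, with 1 of 6 lower and 0 higher. Cd163 (ENSMUSG00000008845.10, chromosome 6, 124304656 to 124330527, plus strand) had 53.5, 44.4, 44.6, 39.2 and 40.6 CPM across control libraries 1 to 5 and 31.5, 29.2, 34.1, 31.9 and 24.8 CPM across KO libraries 1 to 5, on 487 to 1183 counts. No KO library reached the lowest control library, and the gap ran from 34.1 to 39.2 CPM. The log2 fold change was -0.55 (SE 0.0947, 95% interval -0.77 to -0.33, adjusted p = 0.00773, edgeR with Benjamini-Hochberg adjustment), a level 0.683 times that of control. By p-value it ranked 126 among the 14270 genes. A 2-sided exact permutation test of its mean CPM gave p = 0.00794, the smallest that 5 libraries against 5 can give. Every gene whose groups do not overlap gives this value, so the test only restates that gap. The gene overlaps no other annotated gene.

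Within the KO group, libraries 2 and 5 were the lowest both for Cd163 and for the summed members. KO libraries 1 and 3, which were among the highest for the summed members, had 31.5 and 34.1 CPM of Cd163, below the 39.2 to 40.6 CPM of control libraries 4 and 5, which were among the lower ones for the sum. Set against the summed CPM of the other 34 members in the same library, Cd163 came to 1.93%, 1.94%, 1.36%, 1.65% and 1.79% in control libraries 1 to 5 and to 1.00%, 1.44%, 1.12%, 1.15% and 1.28% in KO libraries 1 to 5. The means were 1.73% ± 0.238 and 1.20% ± 0.165 (SD, n = 5), and the groups overlapped, since KO library 2 lay above control library 3. With Lyz2 left out of the sum, the shares ran from 2.48% to 3.46% in control and from 1.81% to 2.56% in KO libraries. This ratio was taken after the values of Cd163 were seen and is given as a description; whether the number of macrophages has a part in the difference was not tested.

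The markers of other cell types that passed the limit were all lower in KO. Over all genes tested, 1.86% were lower and 0.308% higher. Of 19 endothelial markers, 16 were lower and 0 higher in KO, with a median log2 fold change of -1.24 and summed levels of 228 to 272 CPM in control against 105 to 148 CPM in KO libraries. Of 11 markers of adipose progenitors, 3 were lower, Pdgfra, Col1a1 and Col3a1, and their summed level was 4347 to 5797 CPM in control and 3594 to 4288 CPM in KO libraries. The adipocyte markers went the other way, with 11 of 12 log2 fold changes positive and 0 past the limit. Mean summed levels of the neutrophil and monocyte, T and NK cell and B cell markers were 67.1, 20.3 and 2.41 CPM in control and 69.6, 20.6 and 2.51 CPM in KO libraries. Plac8 made up most of the neutrophil and monocyte sum and Thy1 most of the T and NK cell sum. The part of these cell types in the difference in Cd163 was not tested.

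Mrc1 (chromosome 2, 14229392 to 14332057), which encodes the mannose receptor CD206, had 126, 106, 106, 71.7 and 80.4 CPM in control and 90.03, 82.4, 119, 93.9 and 67.5 CPM in KO libraries. Control library 1 was the highest for Mrc1, as it was for Cd163 and Fcgr2b, but the groups overlapped and the log2 fold change was -0.11 (SE 0.161, edgeR adjusted p = 0.879). Relative to the other members without Lyz2, Mrc1 ran from 5.44% to 8.55% in control and from 5.34% to 7.57% in KO libraries. Folr2, a folate receptor gene of resident macrophages, and Msr1, the class A scavenger receptor gene, had log2 fold changes of -0.11 and -0.05. Cd14, the coreceptor for lipopolysaccharide, had 2.66 to 4.94 CPM in control and 2.94 to 5.70 CPM in KO libraries. Clec7a, which encodes the beta-glucan receptor dectin-1, was near the lower end of what could be tested, at 1.42 to 2.03 CPM in control and 1.09 to 1.66 CPM in KO libraries, with a log2 fold change of -0.31 (SE 0.155, edgeR adjusted p = 0.462).

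**Figure D3:**
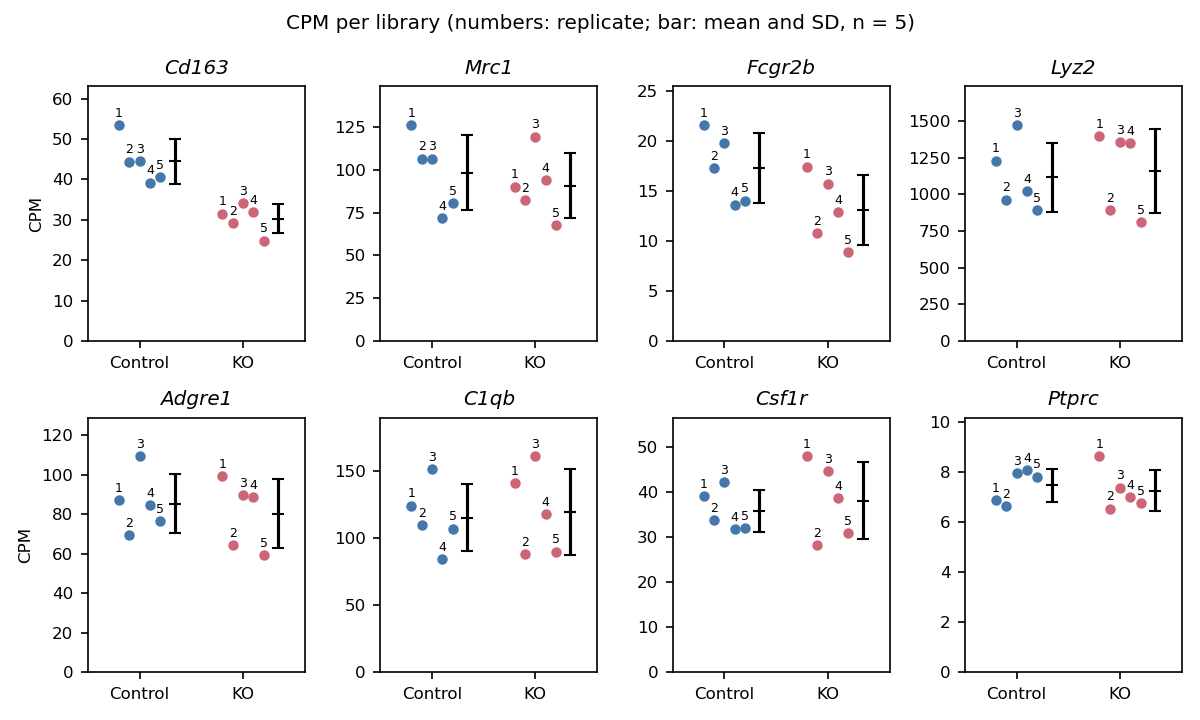
CPM of 8 genes (y axes from 0) in control (blue) and KO (red) libraries, numbered by replicate, with the mean and SD of each group (n = 5) beside the points. The groups do not overlap for Cd163, at 39.2 to 53.5 CPM in control and 24.8 to 34.1 CPM in KO, and overlap for the other 7 genes.

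Among genes of the lysosome and the oxidase, 0 of 3 passed. Gpnmb (chromosome 6, 49036546 to 49070929), a glycoprotein gene induced in lipid-laden macrophages, had 155, 146, 185, 208 and 181 CPM in control and 206, 139, 149, 169 and 145 CPM in KO libraries. Its highest libraries were control library 4 and KO library 1, which also stood apart over all genes, and its log2 fold change was -0.11 (SE 0.115). Ctss, which encodes the protease cathepsin S, had 102 ± 15.1 CPM (control) and 102 ± 25.6 CPM (KO; mean ± SD, n = 5), a log2 fold change of 0.0027. Cybb, the catalytic subunit gene of the phagocyte NADPH oxidase, had 29.2 to 38.2 CPM in control and 24.9 to 36.3 CPM in KO libraries, a log2 fold change of -0.20 (SE 0.105, edgeR adjusted p = 0.497).

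The 6 pan-leukocyte and cytoskeletal genes all had negative log2 fold changes, and 0 passed. Ptprc (chromosome 1, 138062861 to 138175708), which encodes the leukocyte phosphatase CD45, had 6.87, 6.64, 7.95, 8.07 and 7.82 CPM in control and 8.63, 6.54, 7.38, 7.01 and 6.77 CPM in KO libraries. Its libraries varied least among the members, with a coefficient of variation of 10.2%, and its log2 fold change of -0.04 had a 95% interval of -0.26 to 0.18. Laptm5 and Cd53, a lysosomal and a tetraspanin membrane protein gene of haematopoietic cells, had log2 fold changes of -0.02 and -0.03. Lcp1, which encodes the actin bundler L-plastin, had 36.7 to 58.4 CPM in control and 30.9 to 60.9 CPM in KO libraries. Cd52, a small surface glycoprotein gene, and Coro1a, which encodes the actin regulator coronin-1A, rested on 36 to 80 and 25 to 75 counts. Coro1a varied most among the members, with a coefficient of variation of 37.3% and a log2 fold change of -0.28 (SE 0.290).

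Most members were high in the same libraries and low in the same libraries, and each genotype had libraries of both kinds. In control library 3, 35 of 35 members were above their own mean over the 10 libraries, and in KO libraries 1 and 3 it was 30 each. In KO libraries 2 and 5 it was 0 and 1, and in the remaining libraries between 5 and 27. Control library 3 was the highest library for 15 members, KO library 1 for 12, KO library 3 for the 3 C1q genes, control library 1 for Mrc1, Cd163 and Fcgr2b, and control library 4 for Gpnmb and Clec7a. KO library 5 was the lowest for 15 members and KO library 2 for 11. The median coefficient of variation within groups was 20.2% over the members and 9.36% over all genes tested, and no member was under 10%.

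**Figure D4:**
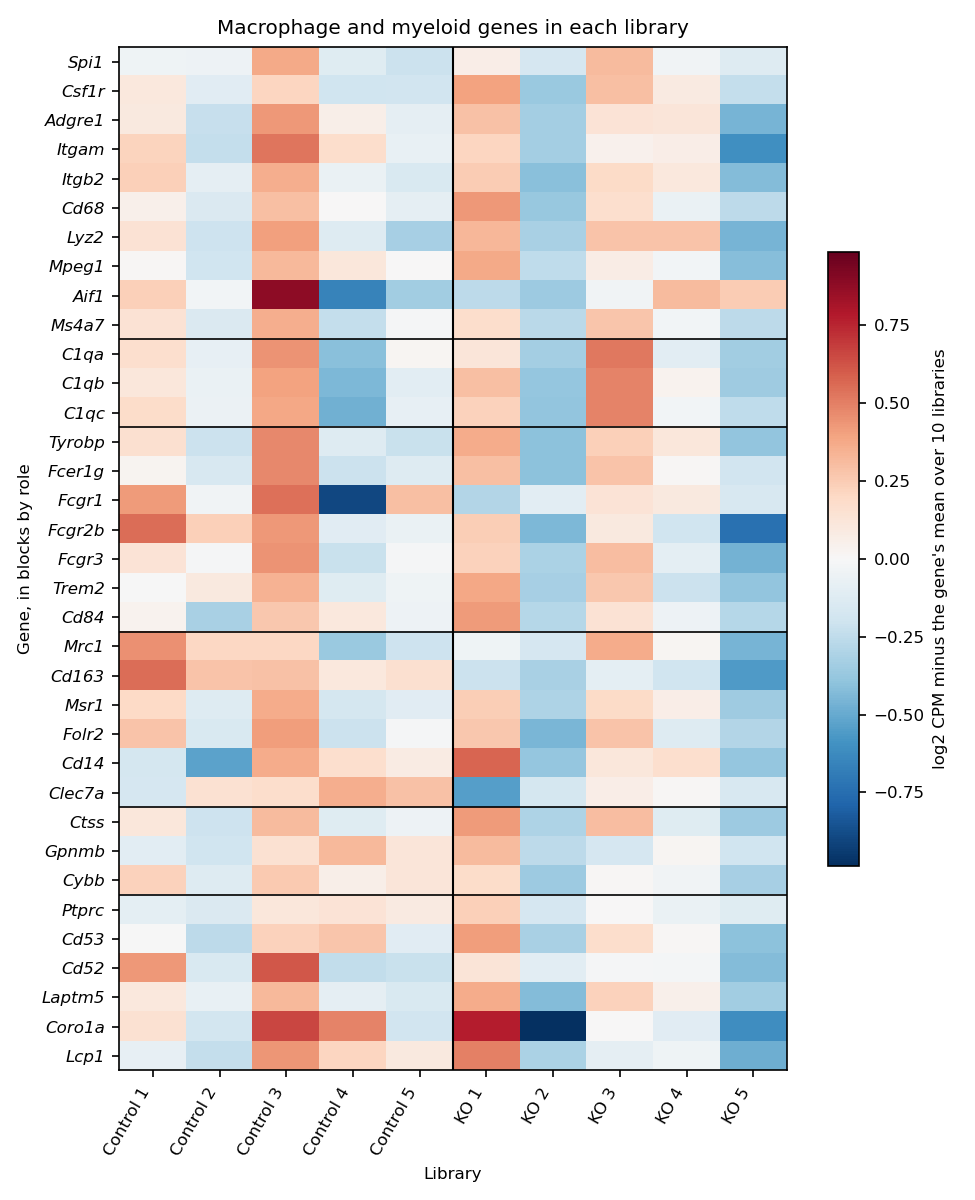
Log2 CPM of each of the 35 genes (rows, in blocks by role) minus its mean over the 10 libraries (columns), red where a library was above the mean and blue where it was below. Control library 3 is above the mean for 35 genes, while KO libraries 2 and 5 are above it for 0 and 1 genes.

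Related genes outside the members, in lists of other macrophage surface genes, Fc and ITAM signalling, the phagosome, the CSF1 axis and lipid-associated macrophages, held 110 genes, of which 109 were in the table and 100 were tested. Of these 100, 1 was lower and 1 was higher, against 1.86% and 0.308% of all genes tested, and the median log2 fold change was -0.03. Which genes passed depended on the fit. The scavenger receptor gene Marco passed with the replicate block (adjusted p = 0.00448, against 0.294 without it, edgeR), and the lectin receptor gene Clec4n passed with DESeq2 (adjusted p = 0.0164), with no filter on low counts (0.0248) and without control library 4 and KO library 1 (0.0162), against 0.0989 in the fit reported here (edgeR). Apoe, the apolipoprotein gene that adipocytes also express, passed with the block (adjusted p = 0.0342, edgeR), with limma voom (0.0244) and without those libraries (0.0306). Marco, Clec4n and Apoe are named after their values were seen. Marco and Clec4n are on the list of surface genes and were lower in KO. At an unadjusted p-value under 0.05 (edgeR), 4 of the surface genes tested were lower and 0 higher. Over all genes these shares were 7.46% and 4.43%. Among 33 tested surface genes, Cd80, a costimulatory ligand for T cells, was lower, at 11.9 ± 0.695 CPM (control) and 8.22 ± 1.44 CPM (KO; mean ± SD, n = 5), a log2 fold change of -0.53 (adjusted p = 0.0230, edgeR with Benjamini-Hochberg adjustment) that passed in 5 of the 10 fits leaving out a library and not with the replicate block (adjusted p = 0.0659, edgeR). The summed level of the surface genes, at 501 to 711 CPM in control and 446 to 685 CPM in KO libraries, overlapped, and it was highest in control library 3 and lowest in KO library 5, like that of the members.

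Of the 15 phagosome genes tested, Acp5, the tartrate-resistant acid phosphatase of osteoclasts and some macrophages, rose from 19.2 ± 1.88 to 27.1 ± 4.64 CPM (mean ± SD, n = 5), with a log2 fold change of 0.49 (adjusted p = 0.0337, edgeR with Benjamini-Hochberg adjustment) that passed in 3 of the 10 fits leaving out a library and neither with the replicate block (adjusted p = 0.0857, edgeR) nor without control library 4 and KO library 1 (adjusted p = 0.0518, edgeR). Among partners of Cybb in the oxidase, Ncf1, Ncf4 and Cyba had log2 fold changes of 0.0010, -0.0041 and -0.08. In Fc and ITAM signalling 0 of 24 genes passed, with a log2 fold change of -0.05 for the kinase gene Syk. In the CSF1 axis 0 of 14 passed, and the ligand gene Csf1 averaged 215 CPM (control) and 190 CPM (KO), a log2 fold change of -0.18 (adjusted p = 0.459, edgeR). Among lipid-associated macrophage genes, many of which adipocytes also express, 0 of 14 passed.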

How the data were processed

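RNA-seq libraries were made with SMARTer and Nextera XT reagents. The authors mapped reads to GRCm38.p6 (mm10 per the labels) with STAR, counted fragments per gene with featureCounts and deposited the counts without normalization or pooling. Of the columns, 0 belonged to other samples. After a filter on low counts (filterByExpr, minimum count 10) and TMM scaling, KO was compared with control over all 14270 genes by the quasi-likelihood test of edgeR 4.0.16 in R 4.3.3, with Benjamini-Hochberg adjustment and a limit of 0.05. A standard error is the size of a log2 fold change over the root of its F statistic, and 95% intervals use 8 residual degrees of freedom. Log2 CPM used a prior count of 2. Coordinates, overlaps and exon lengths are from GENCODE M21 (GRCm38), and promoter sequences from RefSeq on GRCm38.p6. The exact permutation test used all 252 assignments and was 2-sided.

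The members, the gene lists and the tests were chosen with earlier results of these data known. The genes named are all members, Fam20c, and up to 4 genes past the limit in each other list, beside markers named for an identity check or as examples after their values were seen. The promoters printed and the motifs were picked with the values in view. Alternatives tried were DESeq2 1.42.0, limma 3.58.1 (voom with quality weights), other size factors and filters, a block for the replicate number, each library left out, and control 4 and KO 1 left out together. The edgeR fit reported here, DESeq2 and limma voom were first tested on simulated data in which 200 genes had known changes. Those data had a common dispersion for all genes, and the other alternatives were not tested in this way.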

Additional observations from a re-analysis of the deposited data

Results flagged for a closer look

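Dixon's ratio sets the gap between an extreme library and its nearest neighbour against the whole range of its group, and chance takes it past 0.71 in 5% of groups of 5. It was computed for 72 groups (35 members and their sum, by genotype), of which chance would give 3.6 past that value and 1 was. That group was the control group for Spi1, with a level of 12.5 CPM for control library 3 where the other 4 controls spanned 8.33 to 9.39 CPM (ratio 0.747). The same library had the highest summed level of the members.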

How the results depend on the processing

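Cd163 stayed lower and past the limit in 18 of 18 alternatives, with log2 fold changes from -0.61 to -0.48 and adjusted p-values from 9.67e-06 to 0.0305. The count of members past the limit was 1 lower and 0 higher in each of them. Of 630 values of single members over the alternatives, 550 kept direction and side of the limit and 80 changed sign, all from 19 members that were not past the limit. The log2 fold change was 0.00176 for Cd84 with DESeq2, 0.00306 for Cd84 with its size factors in edgeR and 0.00241 for Cd84 with no filter on low counts. Upper quartile factors gave -0.00198 for Fcer1g and -0.0025 for Ctss, and a minimum of 1 CPM in 5 libraries gave -9.21e-05 for Ctss. Limma voom gave -0.00648 for Csf1r, -0.030 for Lyz2, -0.0791 for C1qb, -0.0939 for C1qc, -0.0518 for Fcer1g and -0.0926 for Ctss. Leaving out control library 4 and KO library 1 gave -0.0168 for Spi1, -0.0373 for Csf1r, -0.0462 for Lyz2, -0.10 for C1qb, -0.12 for C1qc, -0.12 for Fcer1g, -0.057 for Cd14 and -0.15 for Ctss. Over the fits that left out 1 library, values ran from -0.11 to 0.12 for Tyrobp, -0.12 to 0.0719 for Cd84, -0.0674 to 0.14 for Fcer1g, -0.099 to 0.16 for Cd14, -0.11 to 0.0899 for Ctss, -0.17 to 0.0192 for Adgre1, -0.15 to 0.0661 for Cd68, -0.24 to 0.17 for Aif1, -0.12 to 0.0552 for Ms4a7, -0.20 to 0.0746 for C1qa, -0.12 to 0.042 for Msr1, -0.15 to 0.0563 for Cd53, -0.13 to 0.0735 for Laptm5, -0.0631 to 0.13 for Spi1, -0.0767 to 0.17 for C1qb, -0.11 to 0.14 for C1qc, -0.0154 to 0.18 for Lyz2 and -0.10 to 0.00245 for Ptprc. The cause of these changes was not tested.

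Over all genes tested, samples with the same replicate number did not all deviate together (correlations of -0.173, 0.0892, 0.263, -0.251 and 0.0337 for numbers 1 to 5). Of the 5 control libraries, 1, number 3, correlated best with the KO library of its own number. The number is therefore not taken as a pairing in the fit reported here. The summed level of the members did follow the number in part, with numbers 1 and 3 highest and number 5 lowest in each group. Whether the libraries were paired was not tested. For the members, the block lowered the standard error for 32 of 35, and its median from 0.151 to 0.0898. The matching share over all genes was not computed. Most members were high and low in the same libraries, so these 32 are not separate observations. With the replicate number as a block, 193 genes were lower and 21 higher, against 265 and 44 without it, Cd163 remained past the limit (edgeR adjusted p = 0.00877), and values were -0.00153 for Fcer1g and -0.0204 for Ctss. Aif1, Clec7a, Coro1a and Cd52 had at most 42, 47, 75 and 80 counts in a library, and at the lowest count of Aif1, 14, counting error alone was 26.7% of the value.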
